A study of Mus musculus with 24 samples.

Results

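Processed pseudogenes are copies of messenger RNA that were reverse transcribed and inserted back into the genome, and the features described here are those assembled from liver RNA that matched such a gene in Ensembl. They were selected on the deposited expression values: a feature had to carry the gene biotype processed pseudogene and at least 0.3 FPKM (fragments scaled to transcript length and to the number of mapped fragments) in 1 or more of 4 groups of livers. Features of the major urinary protein family, whose symbols start with Mup, were left out. Of 9229 processed pseudogene features in the tables, 955 passed (10.3%), which belonged to 916 pseudogenes, out of 69905 features of all kinds. For protein-coding features the share at 0.3 FPKM or more was 43.0%. Since the rule used the levels, they are given as a description without a test.

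The livers came from wild-type C57BL/6 mice that were 18 weeks old by their labels and were treated for 12 weeks with LNA (locked nucleic acid) oligonucleotides, which bind a transcript and direct its degradation. The groups compared were Mafg LNA on HFD (high-fat diet), Scr LNA on HFD, LincIRS2 LNA on NCD (the control diet) and Scr LNA on NCD, with 4 livers each, where Scr is the control LNA. Of the 24 livers in 6 groups, 8 livers in 2 groups were not analysed here. HFD supplied 54% of its energy as fat, 22% as carbohydrate and 24% as protein, and NCD 11%, 62% and 27%. Mafg encodes a small MAF transcription factor and LincIRS2 (4833411C07Rik) is a long non-coding RNA. The methods describe males of the N substrain, with a longer course of LNA than the labels, and saline or insulin injected at random before tissue collection. Which liver received insulin was not known here, and its part in any difference between groups was not tested.

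Each group had 1 FPKM value, which the authors pooled over its livers, so there is no spread between replicates, no p-value and no depth behind any value below. A difference was called when it passed 2-fold after 0.1 FPKM was added to both values, a scale that understates the change of low features. LincIRS2 itself was listed at 0.483 FPKM in Mafg LNA HFD, 0.213 in Scr LNA HFD, 0.345 in LincIRS2 LNA NCD and 0.558 in Scr LNA NCD livers, and Mafg was not analysed here. Of 10 hepatocyte markers 8 reached 1 FPKM in a group, against 0 of 3 cholangiocyte markers. The hepatocyte markers Ttr and Cps1 did not, with at most 0.0403 and 0.763 FPKM in any group. Alb was listed at 0 in every group but LincIRS2 LNA NCD, where it had 2663 FPKM. A 0 in these tables can therefore be a failed estimate and is called "listed at 0".

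Retrocopies lack the introns and usually the promoter of the gene they came from. Many carry frameshifts or stop codons and are not known to make protein, although some are transcribed, from a promoter nearby or as part of a gene they landed in. Genes with abundant messenger RNA in the germ line, such as those of ribosomal proteins, left many copies. Because a young copy is nearly identical to its source, a short read from one can often be placed on the other, and how such reads were shared out is not given in the sources used here. The closest protein-coding gene of a pseudogene is called its parent below. It was taken from the name (the gene X of a pseudogene X-ps) or from the best sequence match with at least 70% identity over at least 50% of the pseudogene, and 869 of the 916 pseudogenes had one.

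The sequences of a few retrocopies show how close to the parent the members with the clearest values were. They are read from the GENCODE M21 transcripts (GRCm38), 5′ to 3′, with bases that differ between copy and parent in capitals.

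Gm6166 is a copy of Fabp5, an intracellular fatty acid carrier. Its first 240 bases (chr9:57483963-57484202, plus strand) had 2 differences from the start of the Fabp5 coding sequence.
Gm6166: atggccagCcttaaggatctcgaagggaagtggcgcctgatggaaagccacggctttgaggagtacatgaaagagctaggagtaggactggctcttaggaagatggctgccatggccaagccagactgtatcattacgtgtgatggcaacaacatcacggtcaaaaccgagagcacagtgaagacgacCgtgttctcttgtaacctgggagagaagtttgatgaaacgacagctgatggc
Fabp5: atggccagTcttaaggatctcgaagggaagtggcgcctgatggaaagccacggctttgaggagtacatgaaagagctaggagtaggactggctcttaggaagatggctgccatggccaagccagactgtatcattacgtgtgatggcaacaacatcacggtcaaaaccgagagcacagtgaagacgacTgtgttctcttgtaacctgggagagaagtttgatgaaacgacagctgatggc

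Gm3571 is a copy of Fdps, the farnesyl diphosphate synthase of the cholesterol pathway. The 240 bases shown (chr10:93779136-93779375, plus strand) had 4 differences from Fdps.
Gm3571: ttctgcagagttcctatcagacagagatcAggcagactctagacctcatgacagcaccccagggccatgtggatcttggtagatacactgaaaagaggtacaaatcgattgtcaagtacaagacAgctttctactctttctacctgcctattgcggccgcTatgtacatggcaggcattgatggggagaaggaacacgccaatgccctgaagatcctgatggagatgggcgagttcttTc
Fdps: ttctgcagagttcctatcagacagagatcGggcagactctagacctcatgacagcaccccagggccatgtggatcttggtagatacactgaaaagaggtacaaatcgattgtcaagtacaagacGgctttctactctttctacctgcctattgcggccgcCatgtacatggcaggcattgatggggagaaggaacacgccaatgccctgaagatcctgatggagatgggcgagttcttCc

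Gm8099 is a copy of Zwint, which encodes a protein of the kinetochore, the chromosome's attachment to the spindle. The 240 bases shown (chr5:137928300-137928539, plus strand) had 12 differences from Zwint.
Gm8099: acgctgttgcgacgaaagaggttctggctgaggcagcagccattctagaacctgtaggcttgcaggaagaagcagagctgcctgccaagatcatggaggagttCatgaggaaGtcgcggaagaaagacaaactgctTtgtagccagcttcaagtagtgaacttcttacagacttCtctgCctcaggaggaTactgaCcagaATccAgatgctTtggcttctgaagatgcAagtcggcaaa
Zwint: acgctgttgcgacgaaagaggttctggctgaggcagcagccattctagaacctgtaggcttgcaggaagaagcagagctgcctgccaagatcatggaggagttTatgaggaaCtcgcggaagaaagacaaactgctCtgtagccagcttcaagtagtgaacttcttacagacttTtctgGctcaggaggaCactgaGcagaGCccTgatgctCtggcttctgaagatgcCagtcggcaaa

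Gm12837 is a more diverged copy of Mcts1, a translation factor gene, and lies in an intron of the cytochrome gene Cyp4a12b. The 186 bases shown (chr4:115416082-115416267, minus strand) had 30 differences from Mcts1.
Gm12837: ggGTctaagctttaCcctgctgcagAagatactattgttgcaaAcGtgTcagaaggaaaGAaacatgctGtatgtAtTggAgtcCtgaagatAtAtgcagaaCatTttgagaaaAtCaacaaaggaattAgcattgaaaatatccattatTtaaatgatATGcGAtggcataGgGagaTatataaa
Mcts1: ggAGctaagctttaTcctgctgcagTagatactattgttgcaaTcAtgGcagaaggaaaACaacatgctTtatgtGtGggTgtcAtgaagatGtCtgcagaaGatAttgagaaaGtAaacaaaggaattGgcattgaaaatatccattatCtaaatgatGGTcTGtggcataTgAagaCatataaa

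Most members were low. The highest of the 4 group values was below 1 FPKM for 526 members, from 1 to below 3 FPKM for 255, from 3 to below 10 FPKM for 108 and 10 FPKM or more for 66. Its median was 0.882 FPKM, against 1.17 FPKM for protein-coding features and 0.813 FPKM for lncRNA features chosen by the same rule. All 4 groups were at 0.3 FPKM or more for 689 members (72.1%), and 126 passed in 1 group only. The members just inside the threshold were Gm17829, Gm5466 and Gm5910 with highest values of 0.3013, 0.3015 and 0.3035 FPKM. Just outside it were Gm46209 and Gm5928, with 0.2999 FPKM each, and Gm18982 with 0.2996 FPKM. Summed over all members, the level was 2819 FPKM in Mafg LNA HFD, 3172 FPKM in Scr LNA HFD, 3239 FPKM in LincIRS2 LNA NCD and 3286 FPKM in Scr LNA NCD livers.

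The 12 members of highest mean level held 35.5% of the summed FPKM. Gm14303, an identical copy of Rps29, which encodes a protein of the small ribosomal subunit, had 177 FPKM in Mafg LNA HFD, 220 FPKM in Scr LNA HFD, 251 FPKM in LincIRS2 LNA NCD and 224 FPKM in Scr LNA NCD livers. The listed Rps29 feature itself had 109, 141, 161 and 142 FPKM in the same order of groups. Gm5424 is a copy of Ass1, the argininosuccinate synthase of the urea cycle, with 99.5% identity. It had 163 FPKM in Mafg LNA HFD, 194 FPKM in Scr LNA HFD, 160 FPKM in LincIRS2 LNA NCD and 146 FPKM in Scr LNA NCD livers. The listed Ass1 feature, the higher of 2 by mean level, had 3.03, 2.80, 3.26 and 3.02 FPKM in the same order. The copy's feature was thus listed far above it, but 1 feature is not the total of its gene. Tpt1-ps3 is identical to Tpt1, the translationally controlled tumour protein gene, over its annotated length, and had 115, 133, 154 and 160 FPKM in the same order, while the Tpt1 feature listed was at or near 0 in every group. Of the others, Rpl38-ps2, Gm4149 (Rpl37a), Gm9794 (Rpl23) and Gm4332 (Rps20) were ribosomal protein copies. Gm11966 (Atp5j), Gm14539 (Usmg5) and Gm12231 (Atp5f1) matched subunits of the mitochondrial ATP synthase, and Gm16089 matched Uqcrb of respiratory complex III.

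**Figure D1:**
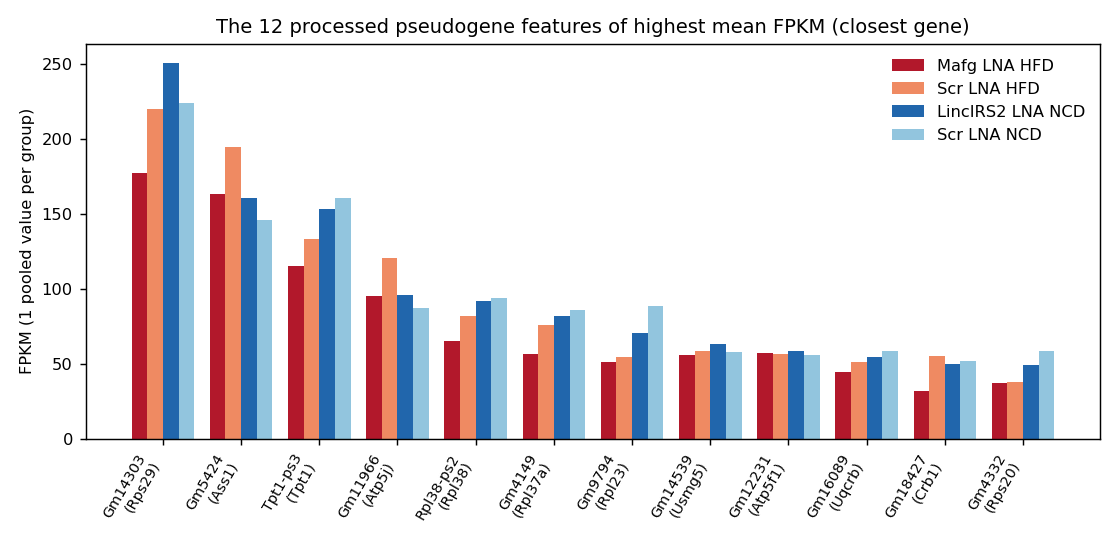
Bars show the pooled FPKM (linear axis from 0) of the 12 processed pseudogene features of highest mean level in the 4 groups, with the closest protein-coding gene in brackets, and there are no error bars because each group has 1 value. Gm14303 stood highest at 177 to 251 FPKM, and Gm18427, the copy with the weakest match, had 31.6 FPKM in Mafg LNA HFD livers against 55.1 FPKM in Scr LNA HFD livers.

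Gm18427 stood apart from the other 11. Its best match was Crb1 at 76.4% identity, its feature lay on the strand of the pseudogene, and the pseudogene sits in an intron of Aadacl2, whose feature was listed at 0 in every group. It had 31.6 FPKM in Mafg LNA HFD, 55.1 FPKM in Scr LNA HFD, 49.9 FPKM in LincIRS2 LNA NCD and 51.6 FPKM in Scr LNA NCD livers. The deposited locus of Gm18427 spans 290296 bp and holds 4 protein-coding genes, so its value cannot be told apart from RNA of those genes. The next protein-coding gene with at least 1 FPKM was Aadac, the arylacetamide deacetylase, 4848 bp from the annotated pseudogene. Aadac had 13.8 FPKM in Mafg LNA HFD, 24.8 FPKM in Scr LNA HFD, 23.1 FPKM in LincIRS2 LNA NCD and 21.8 FPKM in Scr LNA NCD livers. With Mafg LNA the log2 ratio was −0.80 for Gm18427 and −0.84 for Aadac.

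Members differed by the strand on which they were assembled. The tables give no strand for a feature, and it was inferred from the order of feature numbers along each chromosome, so every statement on strand rests on this inference. By it, 421 members (44.1%) lay on the strand opposite to the annotated pseudogene and 534 on the same strand. An opposite strand is not read as antisense RNA here, since 70.9% of protein-coding features at 0.3 FPKM or more were also opposite to their own gene, as were 7.49% of those below 0.3 FPKM. Among processed pseudogene features below 0.3 FPKM the share was 1.08%. What set the strand of a feature was not tested.

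The opposite-strand members were closer to their parents and higher than the same-strand members. Their median identity to the parent was 97.4% (quartiles 95.4% and 98.9%), against 89.7% (81.6% and 94.7%) for same-strand members. Their median highest value was 1.18 FPKM against 0.727 FPKM, and 56 of them (13.3%) reached 10 FPKM, against 10 same-strand members (1.87%). By class of identity, 6.60% of the members at 70 to 80% identity were on the opposite strand, 11.4% at 80 to 90%, 33.5% at 90 to 95%, 73.4% at 95 to 98% and 74.3% at 98 to 100%. In the highest class 16.8% of members reached 10 FPKM, against 1.89% in the lowest class. These shares carry no test, because members of 1 parent share sequence and the levels chose the members.

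**Figure D2:**
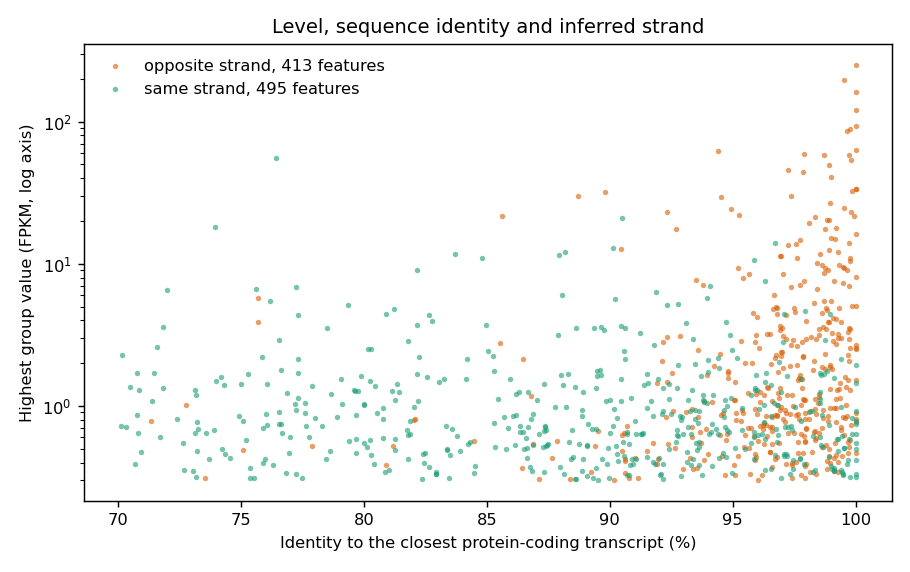
Each point is 1 member with a parent, at its identity to the closest protein-coding transcript (x axis, percent) and its highest group value (y axis, FPKM, log axis), coloured by inferred strand. Opposite-strand members gather at high identity (median 97.4%) and reach 251 FPKM, while same-strand members are spread over the whole range (median 89.7%).

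For 407 of the pseudogenes a feature was listed on each strand, and the one on the opposite strand was higher in 402. Of the 8272 processed pseudogene features below 0.3 FPKM, 89 lay on the opposite strand, against 421 of the 955 members. Choosing members by level therefore favours a higher opposite strand, and the count cannot decide which strand of a copy holds more RNA. Among the 407, the same-strand feature was below 0.3 FPKM in 392 and the opposite-strand feature in 44. The median of the mean level was 0.970 FPKM on the opposite strand and 0.00301 FPKM on the same strand. At Gm5424, the same-strand feature had 0.467 FPKM in Mafg LNA HFD, 0.389 FPKM in Scr LNA HFD, 0.510 FPKM in LincIRS2 LNA NCD and 0.376 FPKM in Scr LNA NCD livers, so nearly all of the listed level of this Ass1 copy was on the opposite strand.

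Same-strand members mostly lay inside other genes. Of the 916 pseudogenes, 462 (50.4%) overlapped no protein-coding gene, 420 lay in an intron and 34 in an exon of 1, and 53 overlapped a lncRNA gene or a transcript of unclear class. In an intron, 389 were annotated on the strand opposite to the host gene and 31 on its strand, while all 34 in exons were opposite to the host. Among features, 89.3% of opposite-strand members but 21.9% of same-strand members overlapped no protein-coding gene. Set against the host gene, 434 of 462 members over a protein-coding gene (93.9%) lay on the strand opposite to the host. Of 493 over no protein-coding gene, 376 (76.3%) lay opposite to the pseudogene. The deposited locus of a same-strand member had a median length of 122232 bp, against 1260 bp for an opposite-strand member, while the pseudogenes themselves had a median length of 545.5 bp (range 78 to 14602 bp). For 87.6% of same-strand members the locus also held a protein-coding gene, so their values cannot be told apart from RNA of the gene around them.

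The 869 pseudogenes with a parent had 568 different parents at a median identity of 94.5% (quartiles 87.4% and 97.8%). Ribosomal protein genes were the parents of 240 (27.6%), and 64 of the 76 ribosomal protein genes listed had at least 1 member copy. Rpl7a led with 23 copies, ahead of Rpl21 with 15, Gapdh (the glycolytic enzyme glyceraldehyde-3-phosphate dehydrogenase) with 13, and Rpl17, Rpl29 and Rps2 with 11 each. The 23 Rpl7a copies had highest values of 0.420 to 10.6 FPKM with a median of 0.749 FPKM, and 8 copies of Hmgb1, a chromatin protein gene, had 0.405 to 1.43 FPKM. The features listed for copies of Rpl7a thus differed widely in level, those of Hmgb1 less so. The highest for Rpl7a, Gm17826, lay on the same strand, where most loci also held a protein-coding gene. Whether such differences belong to the copies was not tested. Where both were listed, the parent's highest feature exceeded the copy in 212 of 399 opposite-strand members and 273 of 480 same-strand members. Only 315 and 327 of these had a parent feature at 0.3 FPKM or more, a level that every member had to reach. Each gene has 1 or a few features here, so a parent's feature is not the total of its gene.

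The 3 comparisons asked how the liver's RNA differs with HFD, with Mafg LNA on HFD and with LincIRS2 LNA on NCD. They share control livers (Scr LNA HFD stands in both HFD comparisons, Scr LNA NCD in the diet and LincIRS2 comparisons), so their values are set side by side and not compared with each other. Across the 911 members above 0 in every group, the highest group value was a median of 1.49 times the lowest, against 1.39 for protein-coding features. For members below 1 FPKM it was 1.66 and for those at 10 FPKM or more 1.40.

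In Scr LNA HFD against Scr LNA NCD livers, 26 of 920 members were past 2-fold higher and 24 lower (5.43%), beside 5.31% of all Ensembl-matched features chosen by the same rule (2.74% higher and 2.57% lower). The share of members was near that background. The median log2 ratio was −0.023 for members and 0.0017 for all features. Of the 50 called, 35 had a highest value below 1 FPKM, and with 0.3 FPKM in all 4 groups required 12 of 689 were called. That stricter rule was not applied to all features, so its counts have no background share, here or in the comparisons below. A ratio could not be formed for the remaining 35, of which 12 were listed at 0 in Scr LNA NCD livers only, 15 in Scr LNA HFD livers only and 8 in both. Summed neutrophil markers, nearly all of them S100a8 and S100a9, were 1.29 FPKM in Scr LNA HFD livers, against 14.0 FPKM in Scr LNA NCD livers. Macrophage markers were 37.6 FPKM against 61.5 FPKM and antigen presentation markers 9.35 FPKM against 17.4 FPKM in the same order. Their part in the members' ratios with HFD was not tested.

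Gm6166 had the lowest ratio with HFD. The Fabp5 copy had 0.201 FPKM in Scr LNA HFD livers, against 5.28 FPKM in Scr LNA NCD livers (log2 ratio −4.16). With the other LNAs it had 0.190 FPKM in Mafg LNA HFD and 5.16 FPKM in LincIRS2 LNA NCD livers, so that both HFD groups were low and both NCD groups high. Fabp5 itself had 0.387 FPKM in Mafg LNA HFD, 0.407 FPKM in Scr LNA HFD, 6.24 FPKM in LincIRS2 LNA NCD and 6.60 FPKM in Scr LNA NCD livers, with a log2 ratio of −3.72 for HFD over NCD. Copy and gene, at 98.3% identity, thus stood at like levels and moved alike, and their reads cannot be told apart in these tables. Another Fabp5 copy, Gm13998 (94.0% identity, assembled on its own strand), had 0.571, 0.523, 0.635 and 0.506 FPKM in the same order of groups and did not pass 2-fold.

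At the higher end with HFD stood Gm13131 and Gm17967. Gm13131 resembles Chpt1, a choline phosphotransferase gene of phosphatidylcholine synthesis, at 94.4% identity. It had 61.8 FPKM in Scr LNA HFD livers, against 17.0 FPKM in Scr LNA NCD livers (log2 ratio 1.86), and 40.3 FPKM in Mafg LNA HFD and 26.3 FPKM in LincIRS2 LNA NCD livers. The Chpt1 feature listed was at or below 0.041 FPKM in every group, and Gm7534, in whose intron Gm13131 lies, was listed at 0. That Chpt1 feature lay on the strand of its gene, while 70.9% of protein-coding features at 0.3 FPKM or more lay opposite to theirs. It is not the total of Chpt1, and reads of gene and copy may be shared, so the level of Chpt1 is not known here. Gm17967 lies in an intron of 9130409I23Rik, on the other strand, and its best match, Rpl7 at 68.5% identity, was too weak for a parent. It had 1.27 FPKM in Mafg LNA HFD, 1.19 FPKM in Scr LNA HFD, 0.222 FPKM in LincIRS2 LNA NCD and 0.215 FPKM in Scr LNA NCD livers (log2 ratio 2.03 for HFD over NCD). Its host had 11.0, 9.33, 1.65 and 1.83 FPKM in the same order (log2 ratio 2.29), so the intronic copy and the host were both high on HFD and low on NCD.

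Among the other low ratios with HFD were both features of Gm12837 (−2.63 and −1.92) and Gm19807 (−1.62), whose levels are given below. Further low ratios were those of Gm38080 (a copy of Rpl13), Gm8641 (March5), Gm13487 (Taf1d) and Gm13314 (Rps6), at log2 −2.52, −1.68, −1.57 and −1.52. None of these 4 exceeded 1.01 FPKM in any group. Gm8641 had 0.166 FPKM in Scr LNA HFD livers, against 0.754 FPKM in Scr LNA NCD livers, while March5, a mitochondrial ubiquitin ligase gene, had 16.0 FPKM in Scr LNA HFD livers, against 14.5 FPKM in Scr LNA NCD livers. At the other end, Gm47834 in the intron of Themis, Gm13183 in the intron of Fam107b and both features of the Gapdh copy Gm5350 had log2 ratios of 2.04, 1.47, 1.76 and 1.46. In Scr LNA HFD livers they had 0.558, 0.664, 0.540 and 0.503 FPKM, against 0.0605, 0.175, 0.0892 and 0.118 FPKM in Scr LNA NCD livers.

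Gm12988 is a copy of Skp1a, a subunit of SCF ubiquitin ligases. It had 14.5 FPKM in Mafg LNA HFD, 17.7 FPKM in Scr LNA HFD, 11.6 FPKM in LincIRS2 LNA NCD and 8.36 FPKM in Scr LNA NCD livers, a log2 ratio of 1.07 with HFD. The Skp1a feature had 6.42, 6.88, 5.18 and 4.81 FPKM in the same order. Gm11341, a copy of Rpl27a, had 4.64 FPKM in Scr LNA HFD livers, against 12.2 FPKM in Scr LNA NCD livers (log2 ratio −1.37). Of the 12 called same-strand members with a host feature at 0.3 FPKM or more, 5 hosts changed at least 1.5-fold in the member's direction and 1 in the other. Of the 16 called opposite-strand members with such a parent feature, 2 parents changed that far in the member's direction and 0 in the other. Called or not, 28 of 279 such hosts of same-strand members and 33 of 315 such parents of opposite-strand members changed that far in either direction. Hosts and parents are counted for each member, here and in the comparisons below, so the same gene can be counted repeatedly.

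In Mafg LNA HFD against Scr LNA HFD livers, 34 of 923 members were past 2-fold higher and 21 lower (5.96%), beside 7.86% of all features (4.63% higher and 3.23% lower). The members' share was below that background, a difference that was not tested. The median log2 ratio was −0.045 for members and −0.025 for all features. Of the 55 called, 35 had a highest value below 1 FPKM, and 15 of 689 were called when all 4 groups had to reach 0.3 FPKM. At 10 FPKM or more, 57 of 66 members had a log2 ratio below 0 (median −0.24), as had 683 of 903 protein-coding features of that level (median −0.19). Summed erythroid markers were 901 FPKM in Mafg LNA HFD livers, against 1950 FPKM in Scr LNA HFD livers, and antigen presentation markers were 29.1 FPKM against 9.35 FPKM. Neutrophil markers were 5.20 FPKM against 1.29 FPKM and macrophage markers 52.9 FPKM against 37.6 FPKM in the same order. Of the macrophage markers, Vsig4 went the other way, with 4.32 FPKM against 5.12 FPKM. Hepatocyte markers, with Alb listed at 0 in both groups, were 3749 FPKM against 5218 FPKM. Endothelial markers were 7.69 FPKM against 11.3 FPKM, stellate markers 43.1 FPKM against 50.2 FPKM and cholangiocyte markers 1.38 FPKM against 1.31 FPKM. Their part in the members' ratios was not tested.

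**Figure D3:**
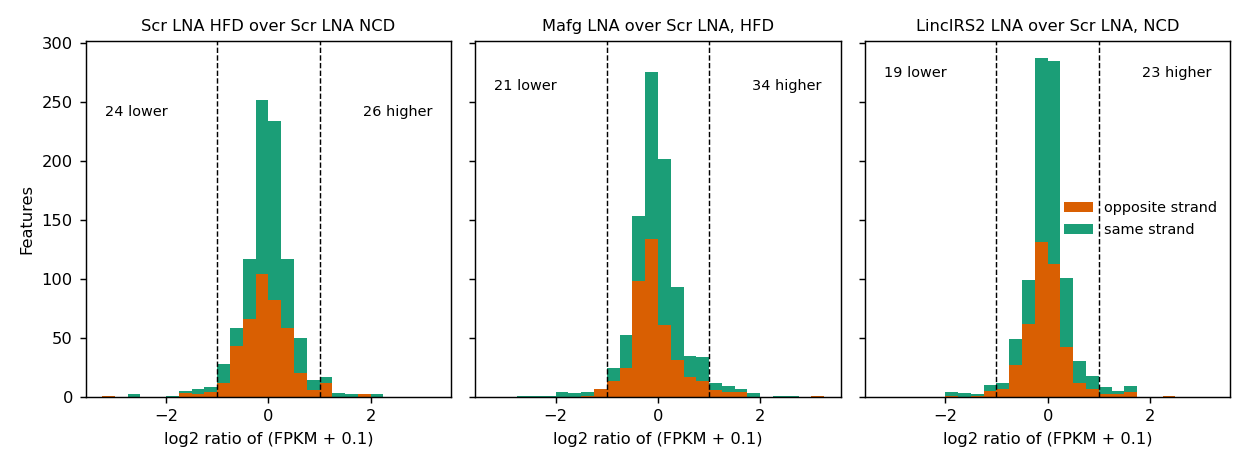
Histograms of the members' log2 ratios of FPKM plus 0.1 (x axis) in the 3 comparisons, stacked by inferred strand (y axis, number of features), with dashed lines at 2-fold and values beyond the axis drawn at its ends. The members past 2-fold number 26 higher and 24 lower with HFD, 34 higher and 21 lower with Mafg LNA, and 23 higher and 19 lower with LincIRS2 LNA.

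The Zwint copy Gm8099 was the highest member called with Mafg LNA. It had 21.5 FPKM in Mafg LNA HFD livers, against 6.77 FPKM in Scr LNA HFD livers (log2 ratio 1.66), and 24.1 FPKM in LincIRS2 LNA NCD livers, against 8.16 FPKM in Scr LNA NCD livers (log2 ratio 1.55). Both groups that received a targeting LNA were thus high and both Scr LNA groups low, and HFD against NCD gave −0.27. Zwint itself had 3.68 FPKM in Mafg LNA HFD, 3.92 FPKM in Scr LNA HFD, 3.47 FPKM in LincIRS2 LNA NCD and 3.50 FPKM in Scr LNA NCD livers, so the gene stayed within a narrow range while its copy did not. The deposited locus of Gm8099 is the pseudogene alone (742 bp), which overlaps no protein-coding gene and is 94.9% identical to Zwint. The ratios rest on 1 pooled value per group, and their spread between livers was not tested.

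Both Fdps copies were low with Mafg LNA. Gm3571 (98.9% identity) had 3.36 FPKM in Mafg LNA HFD, 8.01 FPKM in Scr LNA HFD, 9.09 FPKM in LincIRS2 LNA NCD and 7.88 FPKM in Scr LNA NCD livers. Gm5873 (96.7% identity) had 0.797, 1.72, 2.16 and 1.72 FPKM in the same order. Fdps had 2.52 FPKM in Mafg LNA HFD, 4.53 FPKM in Scr LNA HFD, 4.68 FPKM in LincIRS2 LNA NCD and 4.63 FPKM in Scr LNA NCD livers. The log2 ratios for Mafg LNA over Scr LNA were −1.23 for Gm3571, −1.02 for Gm5873 and −0.82 for Fdps. In all 3 the Mafg LNA HFD group was the lowest and the other groups lay close together, and reads may be shared between them.

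Gm12837 lies in an intron of Cyp4a12b, a fatty acid hydroxylase gene of male mouse liver, and its deposited locus also covers Cyp4a12a. It had 2 features. The first had 2.39 FPKM in Mafg LNA HFD, 0.606 FPKM in Scr LNA HFD, 3.69 FPKM in LincIRS2 LNA NCD and 2.57 FPKM in Scr LNA NCD livers, and the second 1.40, 0.186, 1.12 and 1.67 FPKM in the same order. Scr LNA HFD was the lowest group for both, which gave log2 ratios of 1.82 and 2.39 with Mafg LNA and of −1.92 and −2.63 with HFD. Mcts1, its parent, had 1.97, 2.46, 2.12 and 2.02 FPKM in the same order.

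Several members called with Mafg LNA lay in introns of genes with a like ratio. Gm17181 is a 123-bp copy of part of Ywhaz, a 14-3-3 protein gene, in Ngef. It had 0.514 FPKM in Mafg LNA HFD, 1.94 FPKM in Scr LNA HFD, 1.63 FPKM in LincIRS2 LNA NCD and 1.89 FPKM in Scr LNA NCD livers. Ngef had 0.799, 2.28, 2.10 and 1.96 FPKM in the same order, while Ywhaz had 4.80, 4.07, 4.09 and 3.91 FPKM. Gm19840, a copy of Rpl5 in the cadherin gene Cdh18, had 0.520 FPKM in Mafg LNA HFD, 3.52 FPKM in Scr LNA HFD, 2.12 FPKM in LincIRS2 LNA NCD and 1.03 FPKM in Scr LNA NCD livers. Cdh18 had 0.261, 1.14, 0.607 and 0.348 FPKM, and the 4 groups stood in the same order for copy and host. Over the called same-strand members, 9 had a host feature at 0.3 FPKM or more, of which 6 changed at least 1.5-fold in the member's direction and 0 in the other. Over the opposite-strand members, 18 had such a parent feature, of which 5 changed that far in the member's direction and 0 in the other. These are counts of members, not of separate parents. Fdps was counted for both of its copies, and Gm4788 for each called feature of Gm38019, described below. Called or not, 42 of 279 hosts and 41 of 315 parents changed that far in either direction.

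**Figure D4:**
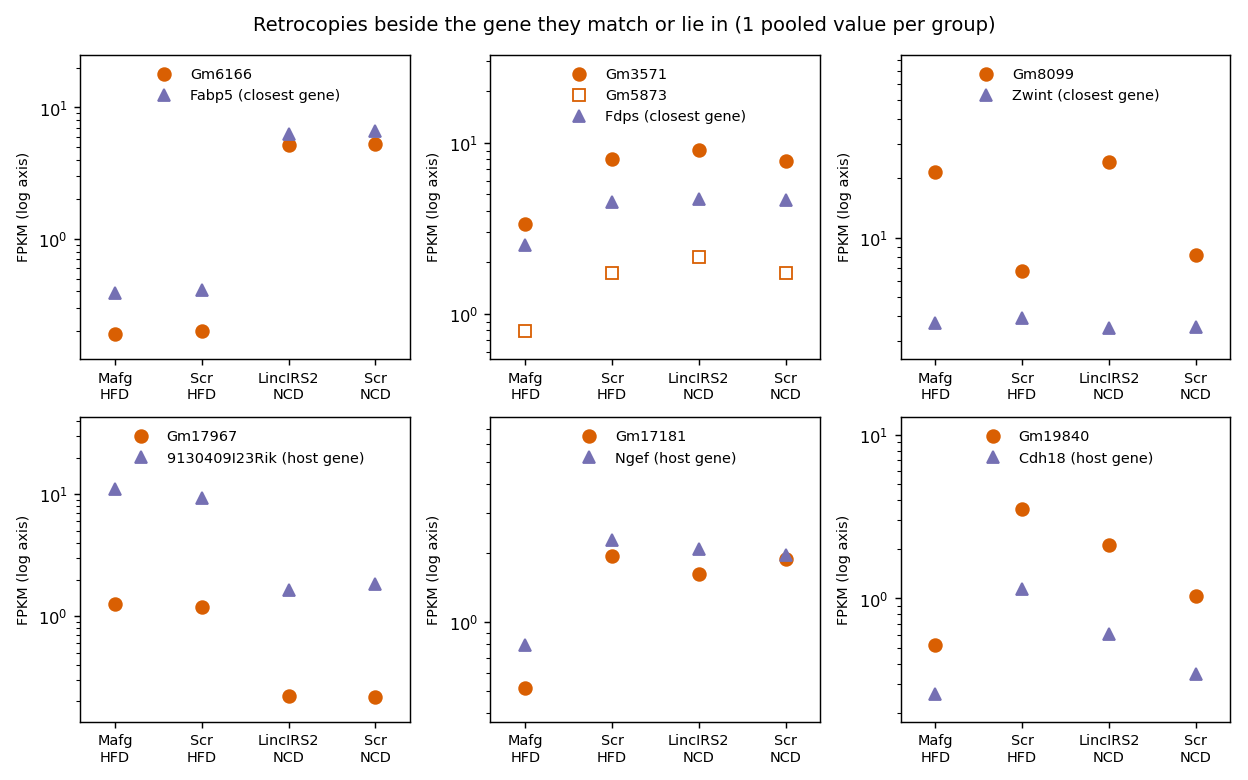
Pooled FPKM (log axes, which differ between panels) of retrocopies (orange) and of the closest or host gene (violet triangles) in the 4 groups. Gm6166 follows Fabp5, both Fdps copies and Fdps are lowest in Mafg LNA HFD livers, Gm8099 is at 21.5 and 24.1 FPKM with Mafg and LincIRS2 LNA while Zwint stays at 3.47 to 3.92 FPKM, and the lower panels set 3 intronic copies beside their host genes.

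A single group stood apart for Gm19340 and Gm38019. Gm19340, a copy of the complex I gene Ndufa5 (86.5% identity), had 2.12 FPKM in Mafg LNA HFD livers, against 0.159 FPKM in Scr LNA HFD livers, the largest ratio with Mafg LNA (log2 3.10). It had 0.189 FPKM in LincIRS2 LNA NCD and 0.0952 FPKM in Scr LNA NCD livers, and Ndufa5 had 79.6, 79.96, 80.5 and 97.2 FPKM in the order Mafg LNA HFD, Scr LNA HFD, LincIRS2 LNA NCD and Scr LNA NCD. The higher of the features of Gm38019, whose best match was Gm4788 at 75.7% identity, had 5.70 FPKM in Mafg LNA HFD, 1.92 FPKM in Scr LNA HFD, 1.76 FPKM in LincIRS2 LNA NCD and 1.43 FPKM in Scr LNA NCD livers. Its deposited locus of 611159 bp held 3 protein-coding genes. Low with Mafg LNA were also Gm20128 (a copy of Rps13), Gm48676 (Ccar1) and Gm6293 (Uqcr10, a subunit of respiratory complex III), with log2 ratios of −2.12, −1.89 and −1.82. Gm6293 had 0.823 FPKM in Mafg LNA HFD, 3.16 FPKM in Scr LNA HFD, 1.61 FPKM in LincIRS2 LNA NCD and 2.95 FPKM in Scr LNA NCD livers, while Uqcr10 had 47.8, 54.3, 47.0 and 47.2 FPKM in the same order. On the higher side, AC154718.1 (Rnf7), AC117588.2 (Sept7) and Gm34248 (Rpl21) had log2 ratios of 2.64, 1.90 and 1.74 and reached 1.43, 0.622 and 0.503 FPKM in Mafg LNA HFD livers, against at most 0.146 FPKM in Scr LNA HFD livers. Of members named after their gene, Cox20-ps (a copy of the complex IV assembly factor gene Cox20) had 0.0665 FPKM in Mafg LNA HFD livers, against 0.462 FPKM in Scr LNA HFD livers, and Ptges3-ps had 0.419 FPKM against 0.0976 FPKM.

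In LincIRS2 LNA NCD against Scr LNA NCD livers, 23 of 923 members were past 2-fold higher and 19 lower (4.55%), beside 3.76% of all features (1.79% higher and 1.97% lower). The members' share was above that background by less than 1 percentage point. The median log2 ratio was −0.0026 for members and 0.011 for all features. Below 1 FPKM stood 29 of the 42 called, and 11 of 689 were called when all 4 groups had to reach 0.3 FPKM. Gm8099, described above, was the only member called at 10 FPKM or more. Gm20121, a copy of Arhgap11a (85.0% identity) that lies 53184 bp from the glucuronosyltransferase gene Ugt2b34, had 1.19 FPKM in LincIRS2 LNA NCD livers, against 3.69 FPKM in Scr LNA NCD livers (log2 ratio −1.56). It had 1.505 FPKM in Mafg LNA HFD and 1.23 FPKM in Scr LNA HFD livers, so Scr LNA NCD was the 1 high group. Gm6343, a copy of Gpbp1l1 (92.2% identity), was the reverse, with 2.79 FPKM in LincIRS2 LNA NCD livers, against 1.00 FPKM in Scr LNA NCD livers, and 2.25 FPKM in Mafg LNA HFD and 2.50 FPKM in Scr LNA HFD livers. The remaining low ratios with LincIRS2 LNA included CT010505.1 in an intron of App, Gm28924 in an intron of Tfdp2, Gm13413 (a copy of Rpl15) and Gm29640 in an intron of Pard3b, at log2 −1.88, −1.83, −1.78 and −1.67. The closest coding sequence to CT010505.1 was the mitochondrial gene mt-Nd4 at 78.3% identity, and it had 0.124 FPKM in LincIRS2 LNA NCD livers, against 0.727 FPKM in Scr LNA NCD livers. App had 3.72 FPKM in LincIRS2 LNA NCD livers, against 3.94 FPKM in Scr LNA NCD livers. The remaining high ratios included Gm11453, Gm13294 (a copy of Zbtb2), Gm15715 (S100a11) and Gm11235 (Map3k4), at log2 2.40, 1.71, 1.68 and 1.55, and none of these exceeded 1.03 FPKM in any group. Neutrophil markers summed to 1.17 FPKM in LincIRS2 LNA NCD livers, against 14.0 FPKM in Scr LNA NCD livers, and macrophage markers to 33.9 FPKM against 61.5 FPKM. Their part was not tested. Of the 13 called same-strand members with a host feature at 0.3 FPKM or more, 1 host changed at least 1.5-fold in the member's direction and 2 in the other. Of the 12 parents of opposite-strand members, 0 changed that far in the member's direction and 1 in the other. Called or not, 27 of 279 hosts and 25 of 315 parents changed that far in either direction.

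The ribosomal protein copies, the largest family among the members, are given by strand. With HFD, the 51 on the opposite strand had a median log2 ratio of −0.35, and 46 were below 0. The 191 on the same strand that had a ratio were at −0.021, with 101 below 0, and the 78 features of ribosomal protein genes themselves at −0.37, with 71 below 0. With Mafg LNA the medians were −0.25 for opposite-strand copies (43 of 51 below 0), 0.00070 for same-strand copies (96 of 192) and −0.12 for the genes (53 of 78). With LincIRS2 LNA they were −0.13 (38 of 51), 0.012 (90 of 192) and −0.20 (64 of 78). Past 2-fold were 1, 1 and 0 of the 51 opposite-strand copies with HFD, Mafg LNA and LincIRS2 LNA. In the same order of comparisons they were 11 of 191, 8 of 192 and 10 of 192 same-strand copies and 9, 5 and 5 of the 78 gene features, beside 5.31%, 7.86% and 3.76% of all features. Opposite-strand copies hold reads that can come from the parents, and copies of 1 parent are not independent, so no test is given. Among the copies named after a ribosomal protein gene, Rpl14-ps1 had 24.9 FPKM in Mafg LNA HFD, 32.2 FPKM in Scr LNA HFD, 37.0 FPKM in LincIRS2 LNA NCD and 49.5 FPKM in Scr LNA NCD livers on the opposite strand. Rps24-ps3 had 21.6, 26.8, 35.3 and 40.9 FPKM in the same order, and Rps16-ps2 19.4, 24.2, 30.6 and 33.4 FPKM. In each of the 3, both HFD groups were below both NCD groups. Eif4a-ps4, a copy of the translation initiation helicase gene Eif4a1, had 21.2, 19.5, 21.6 and 21.8 FPKM. Its HFD groups were also below its NCD groups, but by less. Its log2 ratio for HFD over NCD was −0.16, against −0.62, −0.61 and −0.47 for Rpl14-ps1, Rps24-ps3 and Rps16-ps2.

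**Figure D5:**
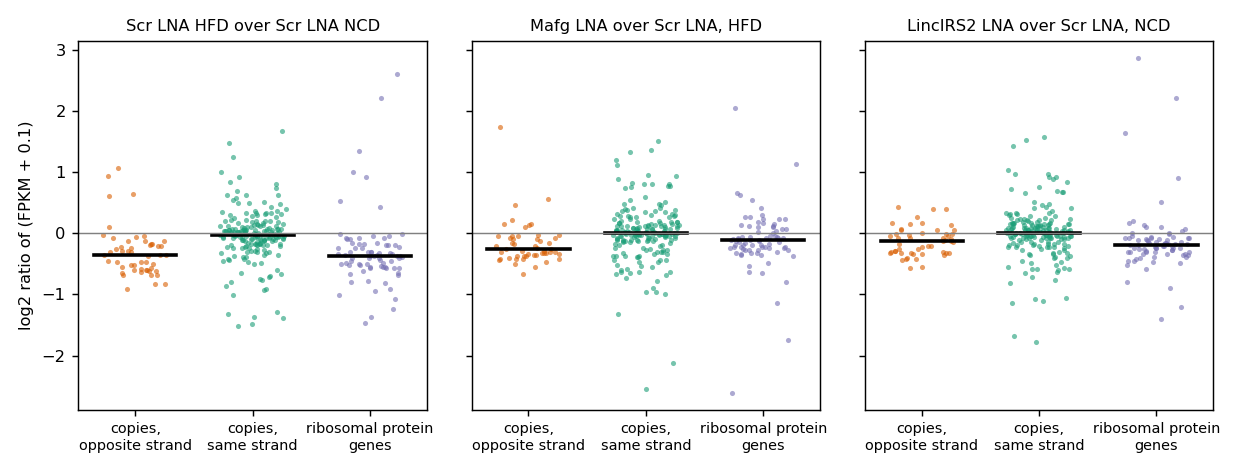
Log2 ratios of FPKM plus 0.1 (y axis) of ribosomal protein retrocopies on the opposite and the same strand and of the ribosomal protein genes in the 3 comparisons, with 1 point per feature and a bar at the median. With HFD the opposite-strand copies (median −0.35) lie beside the genes (−0.37), while the same-strand copies are centred at −0.021.

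Over the 3 comparisons, 834 members passed 2-fold in none, 98 in 1, 20 in 2 and 3 in all 3. Gm46424 and Gm19807 were among the 3. Because the comparisons share control groups, 1 control value can bring a member past 2-fold in 2 of them. Neither this tally nor the one by length below was made over all features, so they have no background share. Gm46424, an Rps29 copy in an intron of Cdc14b, had 0.936 FPKM in Mafg LNA HFD, 0.265 FPKM in Scr LNA HFD, 0.220 FPKM in LincIRS2 LNA NCD and 0.926 FPKM in Scr LNA NCD livers. Gm19807, a copy of Pbdc1, had 1.52, 0.586, 0.939 and 2.01 FPKM in the same order. By length of the pseudogene, at least 1 comparison was past 2-fold for 6 of 43 members under 200 bp, 46 of 258 of 200 to under 400 bp, 40 of 355 of 400 to under 800 bp and 29 of 299 of 800 bp or more, and the difference between these classes was not tested.

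Finally, 44 members were listed at 0 in 1 or more groups, 11 of them in all but 1. Gm35389 was listed at 0 in Mafg LNA HFD livers, with 2.69 FPKM in Scr LNA HFD, 3.25 FPKM in LincIRS2 LNA NCD and 4.45 FPKM in Scr LNA NCD livers. Gm13082, a copy of Rab6a, was also listed at 0 in Mafg LNA HFD livers and had 1.09, 2.87 and 0.945 FPKM in the other groups in that order. Gm10060 had 3.64 FPKM in Scr LNA NCD livers and was listed at 0 elsewhere. Gm13829 had 2.68 FPKM in Mafg LNA HFD and 0.674 FPKM in Scr LNA HFD livers and was listed at 0 in both NCD groups. Its locus held 19 protein-coding genes, and no fold is given for any of these against a group at 0.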

How the data were processed

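The authors trimmed reads of strand-specific, rRNA-depleted libraries, removed rRNA reads with Bowtie2 2.2.9, aligned the rest with STAR 2.6.0c to GRCm38 (mm10), and assembled and quantified transcripts with Cufflinks 2.2.1 and Cuffdiff, per the submitters' processing notes and the methods. The 3 deposited tables hold 1 FPKM value per assembled transcript and group, pooled by the authors over 4 livers. Their columns of the authors' own comparisons (fold changes, test statistics, p-values and q-values) were not used. Depth is unknown and no interval, SD or test could be computed.

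Here the tables were joined, members were chosen by the stated rule, and log2 ratios were formed after adding 0.1 FPKM. No ratio was given against a group listed at 0. Pseudogene sequences of GENCODE M21 were compared with its protein-coding transcripts by blastn 2.17.0 (e-value at most 1e-10), and 906 of 916 pseudogenes had the same coordinates there. A gene's feature of highest mean FPKM stood for a parent or host. Features were numbered plus strand first on each chromosome, and a step back in position was taken as the change of strand.

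The members and lists were chosen with earlier results of these data known. Named members were, per comparison, the 8 highest and 8 lowest ratios past 2-fold, the 12 of highest mean, those past 2-fold in several comparisons, retrocopies with a -ps symbol that were high or past 2-fold, the 4 highest listed at 0 in a group and those at the threshold. Gm3571, Gm5873, Gm12988, Gm11341, Gm38019 and Gm13998 were named after their values were seen. Results that need certain withheld items are not reported here. The ratio calculation was tested on simulated data. Python 3.11.15 with pandas 2.3.3 was used.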

Additional observations from a re-analysis of the deposited data

How the results depend on the processing

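The number of members called moved by more than 1.5 times under the settings below and stayed within it when ratios were centred on the median of protein-coding features, when 1 feature per pseudogene was kept and when no filter on level was set. In the order HFD over NCD, Mafg LNA over Scr LNA and LincIRS2 LNA over Scr LNA, the counts were 77, 99 and 69 with no pseudocount, and 7, 10 and 2 with a pseudocount of 1 FPKM. At 1.5-fold they were 159, 160 and 117, and with 1 FPKM required in a group 15, 20 and 13. Features on the strand of the pseudogene gave 26, 32 and 26, and pseudogenes over no protein-coding gene span 31, 34 and 23. With 0.3 FPKM in all 4 groups, a setting added after the data were seen, they were 12, 15 and 11. No share of all features was computed under these settings, so the counts have no background beside them. The members themselves numbered 429 at 1 FPKM, 534 on the strand of the pseudogene and 514 over no protein-coding gene span, counted against the spans of protein-coding genes listed in the tables (all annotated genes gave 493), and with no filter beyond a value above 0 in both groups 1540, 1558 and 1536. The median log2 ratio with Mafg LNA moved to −0.097 at 1 FPKM, 0.014 on the strand of the pseudogene and −0.10 over no protein-coding gene span. Of 86 ratios of named members past 2-fold, 86 stayed past it without a pseudocount and 16 with 1 FPKM, and none turned round in either setting or with centring. No paired analysis was possible because the tables hold 1 pooled value per group, and leaving out replicates could not be run for the same reason.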
